A study of Rattus norvegicus with 6 samples.

Results

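Epithelial cells hold together through proteins of their lateral membrane and keep their shape through keratin filaments, and 10 genes of this apparatus were examined in the rat thyroid. They were the cadherins Cdh1 and Cdh16, the adhesion molecule Epcam, the tight junction genes Cldn1, Cldn3, Ocln and Tjp1, and the keratins Krt7, Krt8 and Krt18. The rule that picks the genes is a list of symbols and uses no measured value, though the list was drawn up with earlier results of these data known, and all 10 of the 10 were found among the 15388 genes counted in each sample. Thyroid RNA came from 3 non-pregnant (NP) samples and 3 samples of late pregnancy (LP, day 18, with the day of the vaginal plug as day 1), all from adult Sprague-Dawley rats. The NP animals were the controls, and pregnancy came from natural mating. Thyroid tissue was snap-frozen and not sorted into cell types in any step the sources give, so every value below is that of a tissue of several cell types. In such tissue, fewer cells of a type and less RNA per cell cannot be told apart.

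The thyroid follicle is a single layer of epithelium around a lumen filled with thyroglobulin, and iodination takes place at its apical border. Tight junctions, built from claudins and occludin on scaffold proteins such as ZO-1, seal the lumen and separate the apical from the basolateral membrane. Below them, E-cadherin couples neighbouring cells through catenins to actin, and keratins 8, 18 and 7 are the intermediate filaments of simple epithelia, in which a type II chain (Krt7, Krt8) pairs with a type I chain (Krt18). Cadherin 16, also called kidney-specific cadherin, is abundant in follicular cells of the thyroid. Several of these genes are also used by the C cells, the parathyroid and the airway lining next to the gland, so the counts do not show which epithelium a read came from.

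The depth was 2752144 to 2965936 counted reads in NP samples and 3224104 to 3449857 in LP samples. Levels are given in CPM, reads per 1000000 counted reads of the library as scaled by TMM. Before that scaling, 3 reads corresponded to 0.870 to 1.09 reads per 1000000 (counting error only). Replicates 2 and 3 of NP differed by no more than sampling noise (chi-square 1.02 per degree of freedom, p = 0.111), and so did those of LP (0.995, p = 0.667). Each such pair entered the mean and SD as 1 sample, so that n = 2 per group. The protocol gives 3 rats per group, but the labels do not say that each replicate was 1 rat, so the p-values measure the spread between these samples, which may be technical. The tissue label held for the follicular cell: Tg took 22.9% to 24.5% of the reads of each sample, and none of the 13 follicular markers listed was at 0 in NP. The other 12 follicular markers summed to between 9008 and 9592 CPM in NP and between 8378 and 8989 CPM in LP, lower in each LP sample than in each NP sample. Skeletal muscle markers (14 of 17 in the tables) summed to between 24.7 and 75.6 CPM in NP and between 4899 and 5189 CPM in LP, with Mylpf and Myh1 at 0 in NP.

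Cdh16 was up-regulated in LP, whereas Epcam, Cldn1, Cldn3, Krt8 and Krt18 were down-regulated. The changes were small except for Cldn1: Cdh16 rose to 1.38 times its NP level, Krt18 fell to 0.691, Krt8 to 0.819, Cldn3 to 0.869 and Epcam to 0.868, while Cldn1, with few reads, fell to 0.371. The other 4 genes (Cdh1, Tjp1, Ocln and Krt7) did not pass the test. Where groups are said below not to overlap, the share of all genes that did so was not counted. All 10 genes passed the filter on low counts and were compared with edgeR (quasi-likelihood F-test, p-values adjusted by Benjamini-Hochberg over 11738 genes), and a gene is called where the adjusted p-value is below 0.05. The fit took the 6 libraries as separate samples, and the SE and p-values given for each gene are from that fit. With replicates 2 and 3 of each group summed, 1 gene was again called higher and 5 lower, with larger adjusted p-values. In that edgeR fit they were 0.0031 for Cdh16, 0.00113 for Krt18, 0.00668 for Cldn1 and 0.0199 for Krt8. Epcam (0.0313) and Cldn3 (0.0411) were nearest to the threshold. Of all genes tested, 15.3% were called higher in LP and 11.7% lower, against 1 and 5 of the 10 genes here. Among the 7943 genes with a mean of at least 50 reads, as 9 of the 10 had, the shares were 17.1% and 15.5%. The study's fold change cutoff of 2 was passed by Cldn1 alone, against 4.90% of all genes higher and 0.537% lower in LP. The median log2 fold change of the 10 genes was -0.17, beside -0.0089 over all genes tested. With the libraries scaled by the 12 follicular markers in place of TMM normalization, 3 of the 5 decreases were still called, and Epcam (adjusted p = 0.184) and Cldn3 (adjusted p = 0.245) were not.

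**Figure D1:**
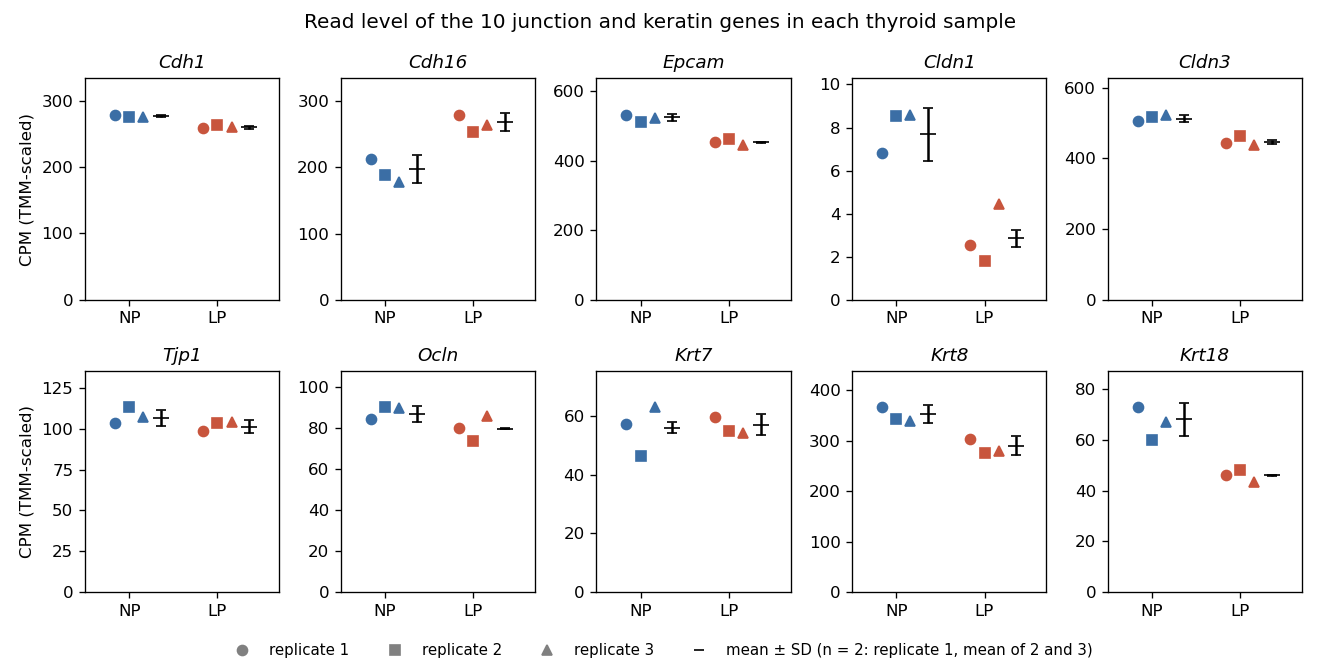
Read level of the 10 genes in each of the 6 samples, in CPM scaled by TMM (y axis, from 0), with a symbol for each replicate and the mean ± SD beside it (n = 2, replicate 1 and the mean of replicates 2 and 3). The LP samples lie above every NP sample for Cdh16 and below every NP sample for Cdh1, Epcam, Cldn1, Cldn3, Krt8 and Krt18, and the groups overlap for Tjp1, Ocln and Krt7. The share of all genes whose groups do not overlap was not counted, and Cdh1 is separated here without being called.

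**Figure D2:**
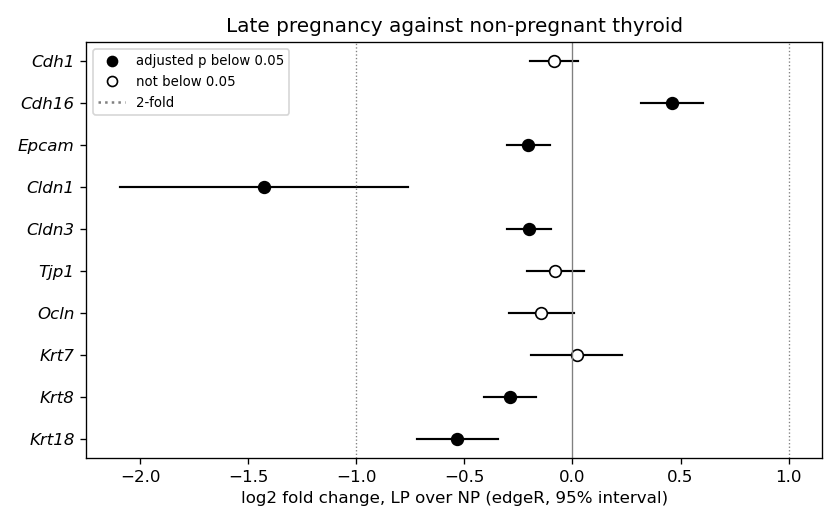
Log2 fold change of LP over NP (x axis) for the 10 genes, from edgeR's quasi-likelihood fit, with 95% intervals as lines and filled points for an adjusted p-value below 0.05. The 6 filled points are Cdh16 on the right of 0 and Epcam, Cldn1, Cldn3, Krt8 and Krt18 on the left, and the interval of Cldn1 (-2.09 to -0.76) is the widest of the 10.

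The promoters of the 5 down-regulated genes are shown because these genes fell in the same comparison. Promoter sequences (RefSeq, build GRCr8, 250 bases before to 50 bases after the annotated start, 5′ to 3′ on the strand of the gene) were found for 7 of the 10 genes, namely Epcam, Cldn1, Cldn3, Tjp1, Ocln, Krt8 and Krt18. Capitals mark every match, on either strand, to TATAAA (the TATA box), GGGCGG (the GC box), GGGAGGG (taken for MAZ), CACCTG (the E-box of Snail and Zeb factors), AACCGGTT (Grainyhead factors) and TGACTCA (AP-1). Some matches overlap and then run together, as GGGCGG and GGGAGGG do in Epcam and Cldn1 and the TATAAA matches on both strands do in Krt8.
Krt8, chr7:135010290-135010589, minus strand: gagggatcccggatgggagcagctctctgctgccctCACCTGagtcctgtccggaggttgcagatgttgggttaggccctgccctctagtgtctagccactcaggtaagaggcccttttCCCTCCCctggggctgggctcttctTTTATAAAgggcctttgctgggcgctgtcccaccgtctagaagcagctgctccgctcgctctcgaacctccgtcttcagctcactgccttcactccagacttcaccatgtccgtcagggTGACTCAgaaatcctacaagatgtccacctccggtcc
Krt18, chr7:135035918-135036217, plus strand: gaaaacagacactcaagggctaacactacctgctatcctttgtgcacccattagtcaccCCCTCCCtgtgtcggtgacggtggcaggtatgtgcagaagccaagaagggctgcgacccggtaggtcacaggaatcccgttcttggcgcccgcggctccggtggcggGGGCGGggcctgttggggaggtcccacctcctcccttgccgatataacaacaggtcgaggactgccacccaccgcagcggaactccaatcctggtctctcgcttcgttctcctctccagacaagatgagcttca
Epcam, chr6:12649629-12649928, minus strand: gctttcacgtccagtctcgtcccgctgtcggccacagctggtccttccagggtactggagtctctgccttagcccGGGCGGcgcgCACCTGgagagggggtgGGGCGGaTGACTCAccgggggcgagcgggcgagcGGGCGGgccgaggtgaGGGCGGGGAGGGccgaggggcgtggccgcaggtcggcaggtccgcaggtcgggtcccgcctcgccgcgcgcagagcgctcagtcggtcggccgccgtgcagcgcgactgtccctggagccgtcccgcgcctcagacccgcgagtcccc
Cldn3, chr12:27346498-27346797, minus strand: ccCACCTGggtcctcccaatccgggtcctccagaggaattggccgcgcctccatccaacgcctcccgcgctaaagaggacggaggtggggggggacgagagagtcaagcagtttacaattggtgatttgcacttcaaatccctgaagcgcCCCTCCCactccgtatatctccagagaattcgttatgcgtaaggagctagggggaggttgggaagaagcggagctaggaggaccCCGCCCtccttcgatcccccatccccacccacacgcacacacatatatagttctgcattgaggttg
Cldn1, chr11:87926126-87926425, plus strand: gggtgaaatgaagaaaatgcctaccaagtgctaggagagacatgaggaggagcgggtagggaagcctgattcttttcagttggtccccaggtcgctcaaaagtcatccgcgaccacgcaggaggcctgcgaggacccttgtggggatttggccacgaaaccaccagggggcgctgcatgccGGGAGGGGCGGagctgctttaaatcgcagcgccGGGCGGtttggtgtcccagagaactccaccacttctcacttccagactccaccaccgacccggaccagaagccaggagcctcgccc
In these windows GGGAGGG was found for 6 of the 7 genes, all but Tjp1, beside 20.8% of all 33469 promoters of this length. CACCTG was found for 4 of the 7 (Cldn3, Epcam, Krt8 and Ocln), beside 18.8% of all promoters. GGGCGG was found for 4 (Cldn1, Cldn3, Epcam and Krt18), beside 33.1%, and it occurred 4 times in Epcam. The AP-1 letters were found for 2, Epcam and Krt8, beside 4.63%. In Krt8 they began at base 14 of the 50 bases after the annotated start, so they do not lie upstream of it. TATAAA was found for Krt8 alone, beside 14.2%, where the match on the strand of the gene began 104 bases before the annotated start. That start falls on the letters atg in the window, so the distance to the start of transcription is not known from it. AACCGGTT was found for 0 of the 7, beside 0.173%. The share of G and C was 75.7% in the window of Epcam, 60.7% in Cldn1, 60.3% in Krt18, 59.0% in Krt8 and 58.0% in Cldn3, beside a median of 51.7% over all promoters. The windows of genes not called had 65.3% (Ocln) and 33.7% (Tjp1), and that of Tjp1 held no match to any motif. The motif counts were not adjusted for the share of G and C. The matches are letters in a window and were not set against the expression values. Krt8 and Krt18 are adjacent genes in the RefSeq order and start on opposite strands, and Cldn3 has Cldn4 as its neighbour.

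Of the cadherins, Cdh16 rose and Cdh1 did not pass the test. E-cadherin, encoded by Cdh1 (ENSRNOT00000027346), is the main adhesive protein of the adherens junction. Its level was 278, 275 and 276 CPM in NP replicates 1, 2 and 3 and 258, 263 and 259.7 CPM in LP, so each LP sample lay a little below each NP sample. The difference from 277 ± 1.84 CPM (SD, n = 2) to 259.7 ± 2.26 CPM was a log2 fold change of -0.09 (standard error, SE, 0.052, adjusted p = 0.252), with a 95% interval from -0.20 to 0.02. Under the follicular scaling the value was on the other side of 0, at 0.020.

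Cdh16 (ENSRNOT00000016419) encodes an atypical cadherin with a short cytoplasmic tail that does not bind catenins. It stood at 212, 188 and 178 CPM in NP and at 279, 254 and 263 CPM in LP, and the groups did not overlap. The rise from 197 ± 20.5 to 268 ± 14.2 CPM (SD, n = 2) was a log2 fold change of 0.46 (SE 0.067, adjusted p = 4.77e-05). Taken apart, replicate 1 gave a log2 fold change of 0.39 and replicates 2 and 3 gave 0.50. Within a sample, the reads of Cdh16 per read of Cdh1 were 0.763, 0.685 and 0.644 in NP and 1.08, 0.965 and 1.01 in LP. This ratio does not depend on the scaling of the libraries, and it was 1.45 times as high in LP.

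Epcam (ENSRNOT00000021135) encodes an adhesion molecule of the lateral membrane that binds claudin 7. It had 530.4, 512 and 524 CPM in NP and 452, 462 and 445 CPM in LP, without overlap. The decrease, from 524 ± 8.84 to 453 ± 0.793 CPM (SD, n = 2), was a log2 fold change of -0.20 (SE 0.046, adjusted p = 0.00295). Replicate 1 alone gave -0.23 and replicates 2 and 3 gave -0.19. Per read of Cdh1, the reads of Epcam were 1.91, 1.86 and 1.90 in NP and 1.75, 1.76 and 1.71 in LP, 0.921 times the NP ratio.

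Of the genes known to act on or with Epcam at the cell surface, 4 of 8 tested were called, and all 4 were lower in LP (median of the list -0.15), beside 11.7% of all genes and 15.5% of genes with a mean of at least 50 reads. Prss8 (prostasin, a membrane serine protease) had a log2 fold change of -0.34 (SE 0.060, adjusted p = 0.000358). The tetraspanin Cd9 fell by 0.29, the protease inhibitor Spint2 by 0.28 and the matriptase gene St14 by 0.21 on the log2 scale. St14 was no longer called under the follicular scaling (adjusted p = 0.304) or without NP replicate 1, NP replicate 2 or LP replicate 3. The partner claudin Cldn7 fell from 136 ± 14.2 to 98.9 ± 14.3 CPM (log2 fold change -0.48, SE 0.091, adjusted p = 0.000642). Its reads per read of Epcam were 0.276, 0.264 and 0.224 in NP and 0.241, 0.204 and 0.187 in LP, and these overlapped.

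Among the tight junction genes, both claudins were down-regulated, and Ocln and Tjp1 did not pass the test. Cldn3 (ENSRNOT00000075280), a sealing claudin of many simple epithelia, had 506, 517 and 522 CPM in NP and 443, 464 and 437 CPM in LP, again without overlap. From 513 ± 9.55 CPM it fell to 447 ± 5.26 CPM (SD, n = 2), which is a log2 fold change of -0.20 (SE 0.048, adjusted p = 0.00388). The value was -0.19 in replicate 1 and -0.21 in replicates 2 and 3.

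Cldn1 (ENSRNOT00000002640), a sealing claudin best known from skin and liver, was at the lower end of what the depth can show. The NP samples held 19, 26 and 26 reads of it and the LP samples 8, 6 and 15, and its level was 7.69 ± 1.23 CPM in NP and 2.85 ± 0.398 CPM in LP (SD, n = 2). Every LP sample lay below every NP sample, and LP replicates 2 and 3, at 1.79 and 4.47 CPM, lay further apart than the NP samples did. The log2 fold change of -1.43 (SE 0.31, adjusted p = 0.00233) therefore had a wide 95% interval, from -2.09 to -0.76, or a fold of 0.234 to 0.589. Leaving out 1 sample at a time gave values between -1.87 and -1.17, all called.

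Ocln (ENSRNOT00000024674) encodes occludin, a tight junction protein that spans the membrane. It had 84.3, 90.1 and 89.6 CPM in NP and 79.8, 73.5 and 85.8 CPM in LP, where LP replicate 3 lay above NP replicate 1. Its log2 fold change was -0.14 (SE 0.071, adjusted p = 0.158), with a 95% interval from -0.30 to 0.0073. Tjp1 (ENSRNOT00000014988) encodes ZO-1, the scaffold that ties these proteins to actin. Its 103, 113 and 107 CPM in NP and 98.4, 104 and 104 CPM in LP overlapped as well. The log2 fold change was -0.08 (adjusted p = 0.397), with a 95% interval from -0.21 to 0.05, and 0.026 under the follicular scaling. On the linear scale the intervals reached down to 0.815 of the NP level for Ocln and 0.865 for Tjp1.

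Of the keratins of simple epithelia, Krt8 and Krt18 fell and Krt7 did not pass the test, and differences between the genes were not tested. Krt8 (ENSRNOT00000038480) had 366, 344 and 339 CPM in NP and 304, 275 and 279.7 CPM in LP, so all LP samples were lower. The NP level of 354 ± 17.6 CPM and the LP level of 291 ± 18.4 CPM (SD, n = 2) gave a log2 fold change of -0.29 (SE 0.057, adjusted p = 0.000907). Krt18 (ENSRNOT00000073951), whose product pairs with keratin 8, had 72.8, 59.8 and 67.2 CPM in NP and 46.2, 48.2 and 43.5 CPM in LP. These groups did not overlap either, and the decrease from 68.2 ± 6.56 to 46.0 ± 0.221 CPM was a log2 fold change of -0.53 (SE 0.088, adjusted p = 0.000181). Krt18 reads per read of Krt8 were 0.199, 0.174 and 0.198 in NP and 0.152, 0.175 and 0.155 in LP, and LP replicate 2 lay within the NP range. The ratio did not separate the groups, and its difference was not tested.

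Krt7 (ENSRNOT00000010660), the other type II keratin of the set, had 57.4, 46.3 and 62.9 CPM in NP and 59.6, 55.1 and 54.2 CPM in LP. The LP samples lay inside the range of the NP samples. Its log2 fold change of 0.02 (SE 0.100, adjusted p = 0.920) had a 95% interval from -0.19 to 0.23, and it turned to -0.11 without NP replicate 2 and to -0.031 without LP replicate 1. Krt7 reads per read of Krt8 were 0.157, 0.135 and 0.186 in NP and 0.196, 0.200 and 0.194 in LP, higher in each LP sample and 1.24 times as high on average.

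Related genes were then read from the same fit, in lists by role. Of 108 genes tested in 10 lists, 15 were called higher and 23 lower in LP, beside 15.3% and 11.7% of all genes, or 22 higher and 12 lower under the follicular scaling. The share called higher was near that of all genes. The median of the 108 log2 fold changes was -0.08. None of the 38 called genes changed sign under any alternative that tested it.

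**Figure D3:**
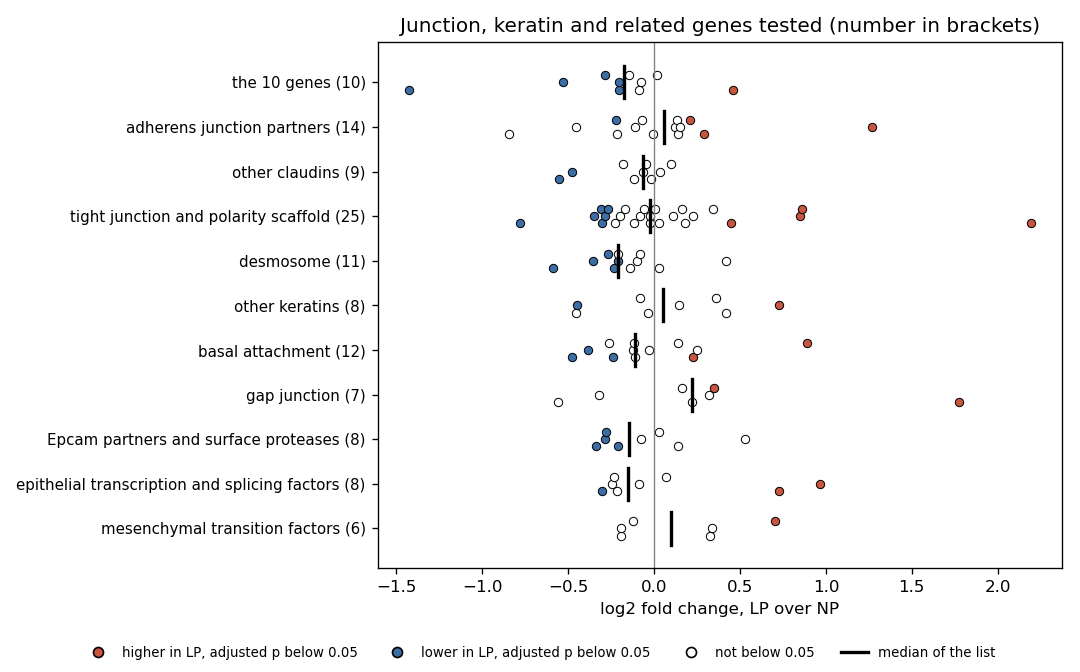
Log2 fold change of LP over NP (x axis) for each tested gene of the 10 genes and of 10 lists of related genes, with red and blue points for genes called higher and lower in LP, open points for genes not called, and a bar for the median of each list. The called points of the desmosome list and of the Epcam partners all lie left of 0, and Amot, at 2.19, is the furthest to the right. Jup, which desmosomes share, is plotted with the adherens junction partners and lies right of 0.

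Desmosomes are the junctions to which keratins anchor. Of 11 genes of the desmosome list tested, 5 were called and all 5 were lower in LP, with a list median of -0.21. Beside this, 11.7% of all genes and 15.5% of those with a mean of at least 50 reads were called lower. With replicates 2 and 3 summed 4 of the list were called, and 2 by DESeq2 or under the follicular scaling. Jup, also a gene of desmosomes, was listed with the adherens junction partners. It was called higher (log2 fold change 0.29, adjusted p = 0.00141), so the single direction holds only for the list as drawn up. Dsp, the plaque protein that binds keratin, fell from 345 ± 3.55 to 271 ± 8.49 CPM (SD, n = 2), and its log2 fold change was -0.35 with an SE of 0.055 (adjusted p = 9.38e-05). The desmosomal cadherin Dsc3 had a log2 fold change of -0.59 (SE 0.059, adjusted p = 5.31e-07), and its relative Dsc2 had -0.24 (adjusted p = 0.0155). Reads of Dsc3 per read of Dsc2 were 1.45 to 1.49 in NP and 1.08 to 1.22 in LP. Perp and Pkp4 had log2 fold changes of -0.27 and -0.21. Dsc2, Perp and Pkp4 were not called under the follicular scaling or by DESeq2. Pkp4 was also not called with replicates 2 and 3 summed, Dsc2 without NP replicate 1 or LP replicate 3, and Perp without LP replicate 2, and Dsp and Dsc3 were called under every alternative.

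Of 9 claudins tested other than the members, 2 were called, both lower, Cldn7 as above and Cldn4. Of all genes, 11.7% were called lower and 27.0% in either direction. Cldn4, the neighbour of Cldn3 and a sealing claudin, had a log2 fold change of -0.55 (SE 0.057, adjusted p = 8.38e-07), from 227 ± 1.39 to 155 ± 0.902 CPM (SD, n = 2). Its reads per read of Cldn3 were 0.447, 0.431 and 0.447 in NP and 0.352, 0.345 and 0.341 in LP, so it lay lower relative to Cldn3 in each LP sample. The median of these 9 genes was -0.07, and 7 more claudins of the tables were below the filter on low counts. The 9 include Cldnd1, which is not a numbered claudin, and not Cldn5, which was listed with the endothelial markers.

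In the tight junction and polarity scaffold, 10 of 25 genes were called, 6 of them lower and 4 higher in LP, beside 11.7% and 15.3% of all genes, with a median of -0.02. The largest decreases were those of the adhesion molecule Jam3 (log2 fold change -0.78, SE 0.13, adjusted p = 0.000175), of Cgn, which encodes cingulin (-0.35, adjusted p = 0.00231), and of the polarity protein gene Crb3 (-0.31, adjusted p = 0.0151). Crb3 was not called by DESeq2 (adjusted p = 0.153), under the follicular scaling (adjusted p = 0.135) or without NP replicate 1. The increases were led by the angiomotin gene Amot, for which 21, 27 and 29 NP reads stood against 122, 130 and 140 LP reads, with a log2 fold change of 2.19 (SE 0.14, adjusted p = 1.57e-09). Mpdz, a multi-PDZ scaffold, had 0.86, and Amotl1 had 0.85. Amot, Mpdz and Amotl1 rose in the same samples in which the skeletal muscle markers were high, and the part of that tissue in their change was not tested.

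Of the adherens junction partners, 4 of 14 were called, 3 of them higher in LP, with a median of 0.06. This share was near the 27.0% called in either direction over all genes. The catenin Ctnna1, which links E-cadherin to actin, was the 1 lower gene (log2 fold change -0.22, adjusted p = 0.0032), and it was not called under the follicular scaling (adjusted p = 0.121). Jup, the plakoglobin gene shared by adherens junctions and desmosomes, rose by 0.29 (adjusted p = 0.00141). Pvrl1, the nectin 1 gene, rose from 31.0 ± 3.71 to 77.4 ± 2.51 CPM (SD, n = 2; log2 fold change 1.27, adjusted p = 7.08e-08). Mllt4, the afadin gene, had 0.21 (adjusted p = 0.0187) and lost its call in several settings, among them DESeq2 (adjusted p = 0.156) and replicates 2 and 3 summed. Beta-catenin (Ctnnb1) did not pass the test, at -0.0065 (adjusted p = 0.948).

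Of the other keratins, 2 of 8 were called, in opposite directions, a share near the 27.0% of all genes. Krt19, a further type I keratin of simple epithelia, had a log2 fold change of -0.45 (SE 0.11, adjusted p = 0.00731) and was not called by DESeq2 (adjusted p = 0.105). Krt13, a keratin of stratified epithelia, had NP reads of 33, 47 and 36 and LP reads of 74, 75 and 64 (log2 fold change 0.73, SE 0.16, adjusted p = 0.00283). Markers of stratified and basal epithelium (7 of 7 in the tables) summed to between 60.0 and 69.4 CPM in NP and between 75.4 and 91.0 CPM in LP. Of these, 1 of 5 tested was called higher, beside 15.3% of all genes, and this was Krt13, which belongs to both lists. Airway markers (6 of 10 in the tables) summed to between 2.87 and 6.92 CPM in NP and between 22.9 and 24.0 CPM in LP. Of these, 3 were below the filter on low counts and the 3 tested were called higher. At such NP levels a marker could pass the filter only through its LP reads. The count of calls is therefore not comparable with the share of all genes. None of the markers of either list was at 0 in all NP samples. How far these tissues add to the keratin and junction values was not tested.

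Transcription and splicing factors of epithelial cells were called for 3 of 8 genes, beside 27.0% of all genes, with a median of -0.15. Grhl1, a Grainyhead factor, had NP reads of 16, 20 and 15 and LP reads of 38, 38 and 35 (log2 fold change 0.97, SE 0.22, adjusted p = 0.00297). The zinc finger gene Ovol1 rose by 0.72 (adjusted p = 0.00408). The epithelial splicing regulator Esrp1 had -0.30 (adjusted p = 0.00837) and was not called by DESeq2 (adjusted p = 0.0658) or under the follicular scaling (adjusted p = 0.102). Grhl2, a regulator of Cdh1 and of claudin genes in other epithelia, did not pass the test (-0.09, adjusted p = 0.456).

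Markers of the remaining cell types gave the setting of these changes, and their called counts stand beside 15.3% of all genes higher in LP and 11.7% lower. C cell markers were called for 2 of 9 genes, 1 higher and 1 lower, a share near the 27.0% of all genes called in either direction. They summed to 14486 to 15491 CPM in NP and 12830 to 13642 in LP. Parathyroid markers, with 1 of 3 called lower, summed to 4474 to 4848 CPM in NP and 3730 to 4045 CPM in LP. Endothelial markers, with 5 of 8 called lower, summed to 772 to 789 CPM in NP and 638 to 657 in LP. Fibroblast markers separated the replicates and not the groups, with 1227 CPM in NP replicate 1 and 1483 in LP replicate 1 against 2113 to 2427 CPM in the other 4 samples, and 1 of 6 was called lower. Immune and adipocyte markers overlapped between the groups, at 282 to 298 CPM in NP and 279 to 307 in LP for immune and 55.7 to 64.9 against 59.5 to 72.1 for adipocyte markers, and nerve and Schwann cell markers had 39.4 to 47.7 CPM in NP and 73.2 to 82.7 in LP. The follicular markers had 3 genes called higher and 5 lower of 13. The skeletal muscle markers had 11 of 12 called higher. Markers with few NP reads can pass the filter on low counts only through LP, so this count is not comparable with the share of all genes. With TMM computed without the muscle markers, the same count of 1 higher and 5 lower of the 10 genes was obtained.

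**Figure D4:**
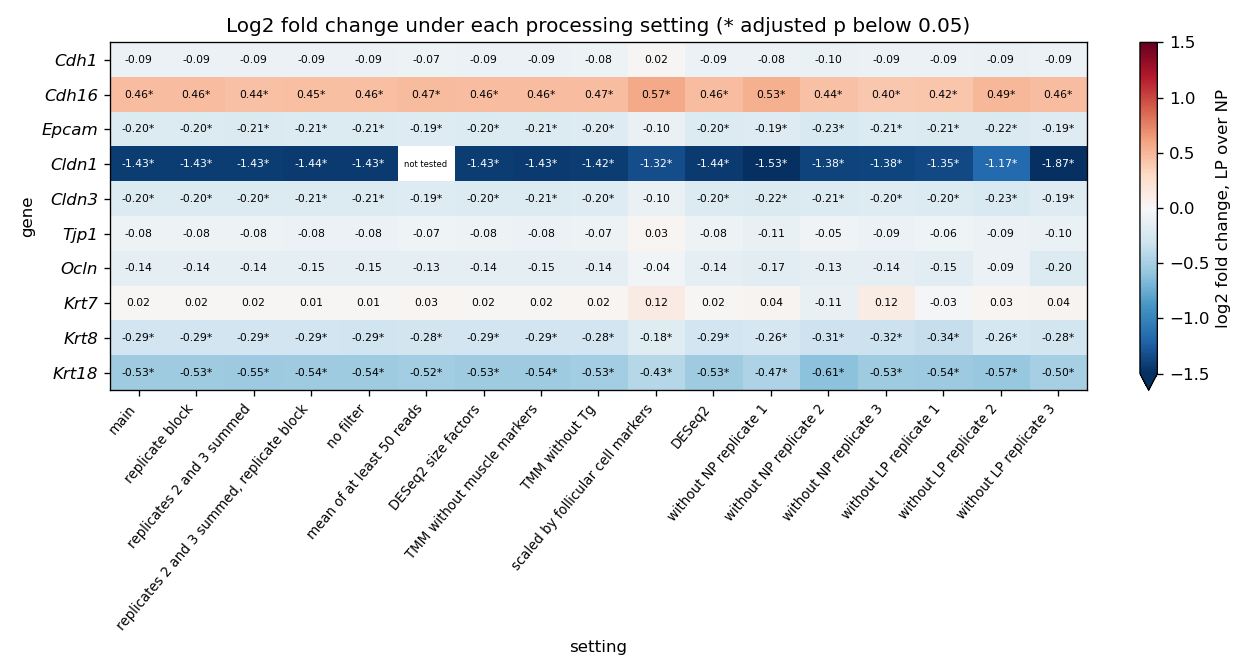
Log2 fold change of LP over NP for the 10 genes (rows) under the processing used here and 16 alternatives (columns), with a star for an adjusted p-value below 0.05. Cdh16, Krt8 and Krt18 carry a star in every column and Cldn1 in every column that tests it, Epcam and Cldn3 lose theirs under the follicular scaling, and Cdh1, Tjp1 and Krt7 change sign in the columns named in the text.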

How the data were processed

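Thyroid RNA (polyA-selected TruSeq libraries) of 3 NP and 3 LP samples was examined, all 6 of them used. The authors mapped reads to rn5 with TopHat 1.4.0, used HTSeq-count on Ensembl gene models, and deposited the resulting raw counts of reads per gene, which are not normalized. The strand setting is not given in the sources used here. LP was compared with NP in R 4.3.3 with edgeR 4.0.16 (glmQLFit and glmQLFTest, TMM scaling, filterByExpr with default settings, Benjamini-Hochberg adjustment over all genes that passed). DESeq2 1.42.0 was an alternative. The standard error was obtained from the log2 fold change and F, as its size over the root of F, and 95% intervals use the degrees of freedom of the test. Levels are in CPM, from library sizes scaled by TMM.

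The list of 10 symbols, the other lists and the alternatives were all chosen with earlier results of these data known. Named are all 10 genes, the called genes of each list with the largest change (at most 3 in each direction, all where 5 or fewer), and partner genes whose ratio or role the text describes. Samples of equal number in NP and LP deviated together over the genes tested (correlations 0.483, 0.216 and 0.183), so the numbers were taken as pairs in an alternative with a block. Replicates 2 and 3 of different number did so alike (0.207 and 0.209). The steps were run on simulated counts in which every library was drawn independently. Those counts do not copy the close agreement of replicates 2 and 3, so they do not test the p-values in that respect. Columns of the tables not tied to a sample numbered 0. Promoter windows are from RefSeq, build GRCr8, not the build of the counts.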

Additional observations from a re-analysis of the deposited data

How the results depend on the processing

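Of the values computed again under 16 alternatives, 260 kept their direction and side of the threshold, or stayed within 1.5 times the count reported. Of the rest, 5 counts moved by more than that, 4 log2 fold changes reversed sign and 2 lost their call. Genes not called in the main fit are included in the 260. With the replicate number as a block, 1 of the 10 genes was called higher and 5 lower, 17 and 26 of the related genes, and 2057 and 1727 of all genes, and the block changed no call of the 10. The coefficient of variation that edgeR estimated fell from 0.0645 to 0.0131 with the block, so its p-values rest largely on counting noise. With replicates 2 and 3 summed, 1 and 5 of the 10 genes and 14 and 22 of the related genes were called.

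Scaling by the follicular markers shifted the median log2 fold change of all genes from -0.0089 to 0.10 and changed most. All genes called lower became 613 instead of 1374, beside 2354 instead of 1794 higher, so that 79.3% of the calls were higher instead of 56.6%. Of the 10 genes 3 were then lower and of the related genes 12, and Cdh1 (0.020) and Tjp1 (0.026) turned sign without being called. Epcam and Cldn3 were at -0.10 each, not called. DESeq2 called 703 of all genes lower. With a mean of at least 50 reads required, Cldn1 was not tested, and 0 of the 10 genes passed the 2-fold cutoff, 4 being called lower. With each sample left out in turn, Krt7 ran from -0.11 to 0.12, not called, and 1 and 5 of the 10 genes were called each time. In those fits a group of 2 samples remained, of which replicates 2 and 3 may be 1 library. Depth limits Cldn1, of 6 to 26 reads a sample.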

Other observations

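Of 12 genes of basal attachment tested, 3 were called lower and 2 higher in LP, beside 11.7% and 15.3% of all genes, with a median log2 fold change of -0.11. Itga3, Itgb4 and Itga6, which encode laminin-binding integrin chains, had log2 fold changes of -0.48 (SE 0.059, adjusted p = 7.64e-06), -0.38 (adjusted p = 4.37e-05) and -0.24 (adjusted p = 0.00195). Itga6 was not called under the follicular scaling (adjusted p = 0.097). Itgb1, the other integrin gene of the list, did not pass the test (-0.12, adjusted p = 0.172), and its groups overlapped. The plakin genes Plec and Dst, whose products link integrins to keratin and are also made in muscle, rose by 0.89 (adjusted p = 1.67e-08) and 0.23 (adjusted p = 0.00213). They rose in the samples in which the skeletal muscle markers were high, and the part of that tissue was not tested.

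Gap junction genes were called for 2 of 7 genes, both higher, with a median of 0.22. Of all genes, 15.3% were called higher and 27.0% in either direction. Gjb1, the connexin 32 gene that is abundant in follicular cells, had NP reads of 968, 1023 and 1061 and LP reads of 1386, 1447 and 1473 (log2 fold change 0.35, SE 0.049, adjusted p = 3.24e-05). It was called higher under all 16 alternatives. Gja3 had NP reads of 9, 14 and 10 and LP reads of 49, 33 and 44 (log2 fold change 1.77, adjusted p = 6.55e-05). Of 6 mesenchymal transition genes tested, 1 was called, Zeb2, a share near the 15.3% of all genes called higher. Zeb2 had 0.70 (adjusted p = 0.013) and was not called by DESeq2 (adjusted p = 0.102) or without LP replicate 3. Vim and Fn1 were not called, at -0.19 and 0.34, and replicate 1 of both groups had fewer reads of both than replicates 2 and 3.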
